A study of Homo sapiens with 8 samples.

Results

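The FGF family was followed here through 10 genes, 6 ligand-family genes (FGF2, FGF4, FGF8, FGF13, FGF17 and FGF19) and the 4 receptor genes FGFR1, FGFR2, FGFR3 and FGFR4. They were taken by symbol from the deposited gene counts, where they are 10 of 27317 symbols, and all 10 passed the filter on low counts that left 17268 genes for testing. RNA was sequenced from Mel1, 1 established line of human embryonic stem cells (ESCs), in 8 libraries. The study asked which transcripts differ in ESCs and in the mesoderm made from them when the stem cells had met a dioxin. In the control groups the cells received the solvent DMSO, and in the treated groups they received TCDD at 2 nM in DMSO. TCDD, a dioxin, is a ligand of the aryl hydrocarbon receptor (AHR), a transcription factor that ligands activate. Both treatments were sampled at D1, directly before differentiation, when the cells were in E8, a stem cell medium that contains FGF2 protein. Both were sampled again at D2, after 2 days (as the labels describe) in RPMI with B27 lacking insulin and with 5 µM CHIR99021, a GSK3 inhibitor that activates Wnt signalling. Each of the 4 groups (DMSO D1, TCDD D1, DMSO D2 and TCDD D2) has 2 libraries. The sources used here give neither the length of exposure nor whether a group's libraries were grown as separate cultures. A p-value here weighs a difference of groups only against how far these libraries spread, taken over all 4 groups. That spread may be technical.

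Secreted FGFs bind FGF receptors on the cell surface together with heparan sulfate chains, and the receptors, which are tyrosine kinases, pass the signal through the adaptor FRS2, RAS and the ERK kinases to ETV transcription factors and to inhibitors such as the Sprouty proteins. Human ESCs depend on FGF2 to stay undifferentiated. FGF4, FGF8 and FGF17 are made in the primitive streak, the structure from which mesoderm and endoderm leave the epiblast, where FGF8 is needed for cells to migrate away, and FGF19 acts with a Klotho co-receptor. FGF13 belongs to the intracellular FGF homologous factors, which do not act through these receptors.

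Promoter sequences are shown for the 2 members that differ between TCDD and DMSO at D2, as described further on, and that have entries in the RefSeq promoter table (GRCh38.p14). FGF4, FGF8 and FGF19 have no entry in that table, and FGF17 and FGFR1 were left out of the search. The members searched were 5 of the 10, FGF2, FGF13, FGFR2, FGFR3 and FGFR4. Their 11 annotated starts were searched on both strands for GCGTG, the core of the site that AHR binds with its partner ARNT, and for ATCAAAG, a TCF/LEF site through which Wnt signalling acts. Only bases outside exons are printed. Capitals mark GCGTG or its reverse complement. The 2 FGF13 windows end just before starts on the minus strand of chromosome X, at chrX:139205024-139205273 and chrX:138739354-138739603, and the FGFR2 window lies on the minus strand at chr10:121598459-121598694.
FGF13 start 1: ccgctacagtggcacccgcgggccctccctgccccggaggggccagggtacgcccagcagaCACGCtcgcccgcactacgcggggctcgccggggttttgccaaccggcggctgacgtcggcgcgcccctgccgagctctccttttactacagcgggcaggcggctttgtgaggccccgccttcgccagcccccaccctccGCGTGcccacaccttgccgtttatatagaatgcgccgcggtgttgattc
FGF13 start 2: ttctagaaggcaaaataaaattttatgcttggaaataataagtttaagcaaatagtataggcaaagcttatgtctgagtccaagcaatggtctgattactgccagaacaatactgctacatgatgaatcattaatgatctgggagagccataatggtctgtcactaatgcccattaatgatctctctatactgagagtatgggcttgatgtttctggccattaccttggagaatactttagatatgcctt
FGFR2 start: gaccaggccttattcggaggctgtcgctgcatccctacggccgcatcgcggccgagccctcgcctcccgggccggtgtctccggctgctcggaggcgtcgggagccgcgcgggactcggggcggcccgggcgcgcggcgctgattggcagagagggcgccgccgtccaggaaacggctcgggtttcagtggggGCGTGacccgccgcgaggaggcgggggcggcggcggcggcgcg
The first FGF13 window holds 2 matches to the AHR core, 189 and 49 bases before the start, and the second holds none. The FGFR2 window holds 1 match, 57 bases before the start. It is 1 of 5 FGFR2 starts in the table, and the other 4, not printed, hold none. Over the 5 members searched, 5 of 11 starts (45.5%) hold the AHR core, 1 start in each of the 5 genes. Of the 35116 promoters of the same length that were searched, 32.2% hold it. No member start holds ATCAAAG, which is in 2.26% of the promoters. The matches describe these letters in these windows and are not measured binding.

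Libraries hold 34873055 to 43770420 counts. Levels are given as CPM (counts scaled to the TMM-adjusted library total, as edgeR reports them) and differences as log2 fold changes ± SE from the edgeR quasi-likelihood F test with Benjamini-Hochberg adjustment over all 17268 genes. A gene is called where the adjusted p is under 0.05. AHR targets checked the treatment: TIPARP was 10.8-fold higher with TCDD at D1 and 3.69-fold higher at D2. Of 4 targets (CYP1A1, CYP1B1, TIPARP and AHRR) all 4 were called higher at D1 and 3 at D2, beside 1.14% and 2.9% of all genes called. AHRR was not called at D2, with 1.19 CPM with DMSO and 1.34 CPM with TCDD. CYP1A1 with TCDD stood at 89.4 CPM at D1 and 2.19 CPM at D2, and its D2 call was lost in 3 of 16 other processings. Pluripotency markers, 8 genes in all, summed to 7003 to 7790 CPM at D1 and 5674 to 6058 CPM at D2. From D1 to D2 with DMSO, 1 of them was called higher and 5 lower, beside 32.5% and 30.7% of all genes tested. With TCDD 4 were called higher and 4 lower, beside 33.1% and 32.2%. With DMSO DNMT3B went from 2032 to 1193 CPM, while NANOG went from 16.2 to 25.5 CPM and POU5F1 from 451 to 470 CPM. Streak markers (T, MIXL1, EOMES, EVX1 and GSC) summed to at most 2.08 CPM at D1, to 580.3 to 617 CPM with DMSO at D2 and to 274 to 313 CPM with TCDD at D2. The D2 libraries, which GEO's source name also calls ESC, thus carry both sets. The sum of the markers of presomitic or cardiac mesoderm, a later stage, did not rise, with 102 to 113 CPM in DMSO D1 and 88.6 to 93.4 CPM in DMSO D2. With TCDD they summed to 86.6 to 93.1 CPM at D1 and 81.8 to 86.4 CPM at D2. Most of this was KDR, at 100 CPM in DMSO D1 and 84.1 CPM in DMSO D2, so the sum says little about the others. Of 3 tested genes of this list 1 was called higher and 1 lower from D1 to D2 with either treatment. MESP1 went from 0.546 to 1.04 CPM with DMSO. Endoderm markers summed to 0.813 to 1.77 CPM at D1 and 14.8 to 17.0 CPM at D2. All 3 tested endoderm genes were called higher from D1 to D2 with either treatment, among them FOXA2, from 0.0380 to 5.72 CPM with DMSO. Neuroectoderm markers summed to at most 3.27 CPM. Trophoblast or amnion markers summed to 9.63 to 11.5 CPM at D1 and 1.17 to 2.09 CPM at D2. A fibroblast list summed to 764 to 856 CPM at D1 and 210 to 269 CPM at D2, all but a few counts of it from COL1A1 and THY1, with LUM at 0 counts in every library. In bulk RNA, fewer cells of a type and less RNA per cell cannot be told apart.

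In undifferentiated cells the family was led by 1 ligand gene and 1 receptor gene. Set per kilobase of merged exons, so that genes can be compared, FGF2 stood at 37.9 ± 5.16 CPM per kb in DMSO D1 (SD, n = 2), FGF19 at 5.32 ± 1.30, FGF13 at 2.83 ± 0.08, FGF4 at 0.373 ± 0.05, FGF8 at 0.344 ± 0.13 and FGF17 at 0.0309 ± 0.011. FGF4 and FGF8 did not differ beyond their spread. On this length FGF2 made up 80.8% ± 3.91 of the summed level of the 6 ligand-family genes. Among the receptors the order was FGFR1 at 48.5 ± 1.84 CPM per kb, FGFR2 at 21.7 ± 0.63, FGFR4 at 19.6 ± 0.19 and FGFR3 at 9.15 ± 0.51, with no overlap between neighbours. Gene counts do not separate the IIIb and IIIc receptor isoforms, which differ in the ligands they bind. The place of FGF13 depends on the length used: its merged exons span 20681 bases and its median coding transcript 1625, and on the latter it stood at 36.0 CPM per kb, beside 48.7 for FGF2. On coding transcript lengths FGF2 made up 53.4% ± 3.42 of the ligand-family sum and FGF13 39.6% ± 1.80.

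**Figure D1:**
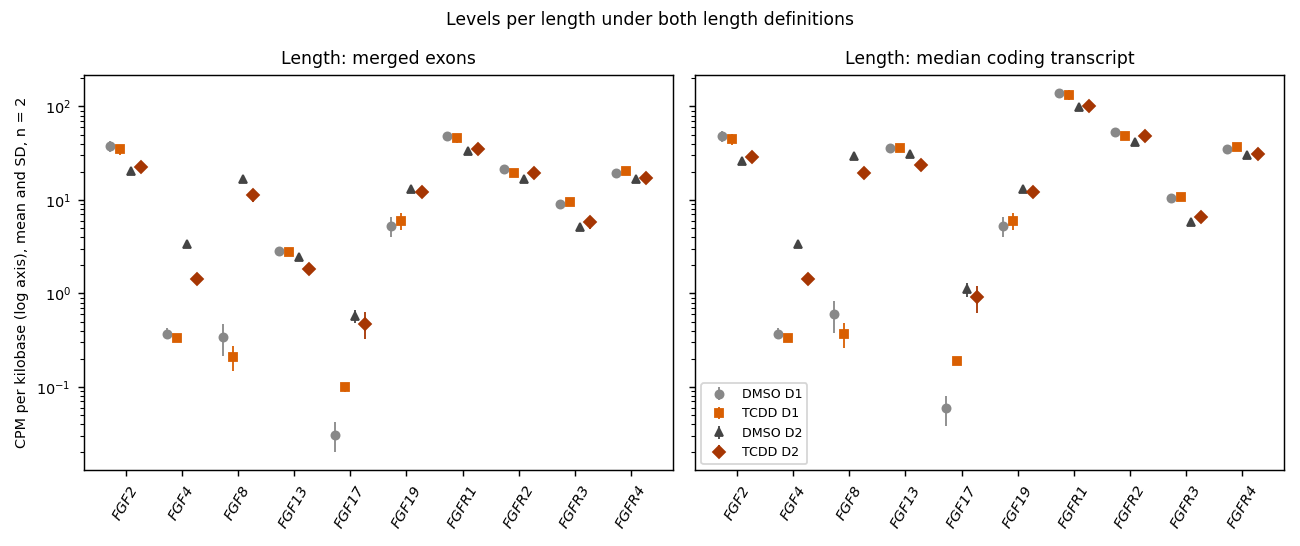
Mean level per kilobase with SD (n = 2 libraries) for the 10 genes in the 4 groups, on a log axis, with length as merged exons (left) or as the median coding transcript (right). FGF2 and FGFR1 are highest at D1 among ligand-family and receptor genes under both lengths, while FGF13 moves from 2.83 to 36.0 CPM per kb in DMSO D1.

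After 2 days of differentiation with DMSO the ligand genes had turned over while the receptors had declined. FGF8, FGF17, FGF4 and FGF19 rose, and FGF2, FGF13 and all 4 receptors fell. All 10 members were called, where 63.2% of all genes tested were called (32.5% higher, 30.7% lower), so the count itself says little about the members. D1 and D2 differ in time, in medium and in any batch, and these cannot be told apart.

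FGF8, a secreted streak ligand, gave 0.355 and 0.61 CPM in the 2 DMSO D1 libraries (14 and 24 counts) and 24.0 and 23.6 CPM in the DMSO D2 libraries (878 and 969 counts). The groups are far apart. The rise was 49.0-fold, a log2 fold change of 5.61 ± 0.17 (adjusted p = 1.53e-16). FGF17, of the same subfamily, was barely detected at D1, with 3 and 5 counts (0.0761 and 0.127 CPM), and reached 61 and 87 counts at D2 (1.67 and 2.12 CPM). That is 18.2-fold (4.18 ± 0.39, adjusted p = 6.83e-09). The small D1 counts limit how well the folds of FGF8 and FGF17 are known, and the SEs printed for these 2 rises are too small.

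FGF4, a ligand of pluripotent cells and of the streak, stood at 1.09 and 1.32 CPM in DMSO D1 and at 11.2 and 10.4 CPM in DMSO D2, 8.93-fold higher (3.16 ± 0.14, adjusted p = 7.53e-14). FGF19, an endocrine FGF, stood at 15.3 and 10.8 CPM and then at 33.4 and 31.4 CPM, 2.49-fold higher (1.32 ± 0.19, adjusted p = 0.00122). The D1 libraries of FGF19 spread more widely than those of D2, but the groups do not overlap.

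FGF2, the stem cell ligand, moved the other way, from 232 and 281 CPM in DMSO D1 to 135 and 142 CPM in DMSO D2, 45.9% lower (-0.89 ± 0.11, adjusted p = 0.000423). FGF13 went from 57.4 and 59.6 CPM to 51.1 and 49.4 CPM, 14.2% lower (-0.22 ± 0.05, adjusted p = 0.000774). Of the 6 ligand-family genes these 2 were the ones that fell.

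Among the receptors FGFR3 fell most, from 42.6 and 46.1 CPM to 23.6 and 25.7 CPM, 44.4% lower (-0.85 ± 0.08, adjusted p = 1.22e-07). FGFR1 went from 690.0 and 654 CPM to 455 and 478 CPM, 30.6% lower (-0.53 ± 0.06, adjusted p = 1.07e-06). FGFR2 went from 161 and 168 CPM to 132 and 124 CPM, 22.2% lower (-0.36 ± 0.05, adjusted p = 1.49e-06), and FGFR4 from 93.9 and 95.2 CPM to 80.2 and 83.3 CPM, 13.5% lower (-0.21 ± 0.05, adjusted p = 0.00161). For each receptor both D2 libraries lay under both D1 libraries, as in 1 direction or the other they did for 82.5% of all genes tested.

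Per kilobase, the ligand-family genes summed to 46.7 ± 4.12 CPM per kb in DMSO D1 and to 57.0 ± 0.27 in DMSO D2, while the receptors summed to 99.0 ± 0.51 and 72.6 ± 1.31. The make-up of the ligand sum changed more than its size. FGF2 went from 80.8% ± 3.91 to 35.9% ± 1.35 of it, FGF8 from 0.726% ± 0.21 to 29.7% ± 0.20, FGF19 from 11.5% ± 3.81 to 23.2% ± 0.93 and FGF4 from 0.796% ± 0.04 to 5.86% ± 0.31. The receptor make-up moved little, with FGFR1 at 49.0% ± 1.61 and 46.4% ± 0.83 of the sum. In DMSO D2 the order of the ligand-family genes was FGF2 at 20.5 CPM per kb, FGF8 at 16.9, FGF19 at 13.2, FGF4 at 3.34, FGF13 at 2.43 and FGF17 at 0.575, and FGFR2 and FGFR4, both at 16.9, did not differ beyond their spread (SD 0.67 and 0.46). With coding transcript lengths FGFR2 lay above FGFR4 at D2 (41.8 and 30.4 CPM per kb), FGF8 stood at 29.8 beside 26.3 for FGF2, and FGF13 at 30.9. The ligand-family sum on these lengths was 91.1 ± 6.61 in DMSO D1 and 104.7 ± 0.83 in DMSO D2, in which FGF2 went from 53.4% ± 3.42 to 25.2% ± 1.02, FGF8 from 0.656% ± 0.20 to 28.4% ± 0.11 and FGF19 from 5.91% ± 1.86 to 12.7% ± 0.47.

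**Figure D2:**
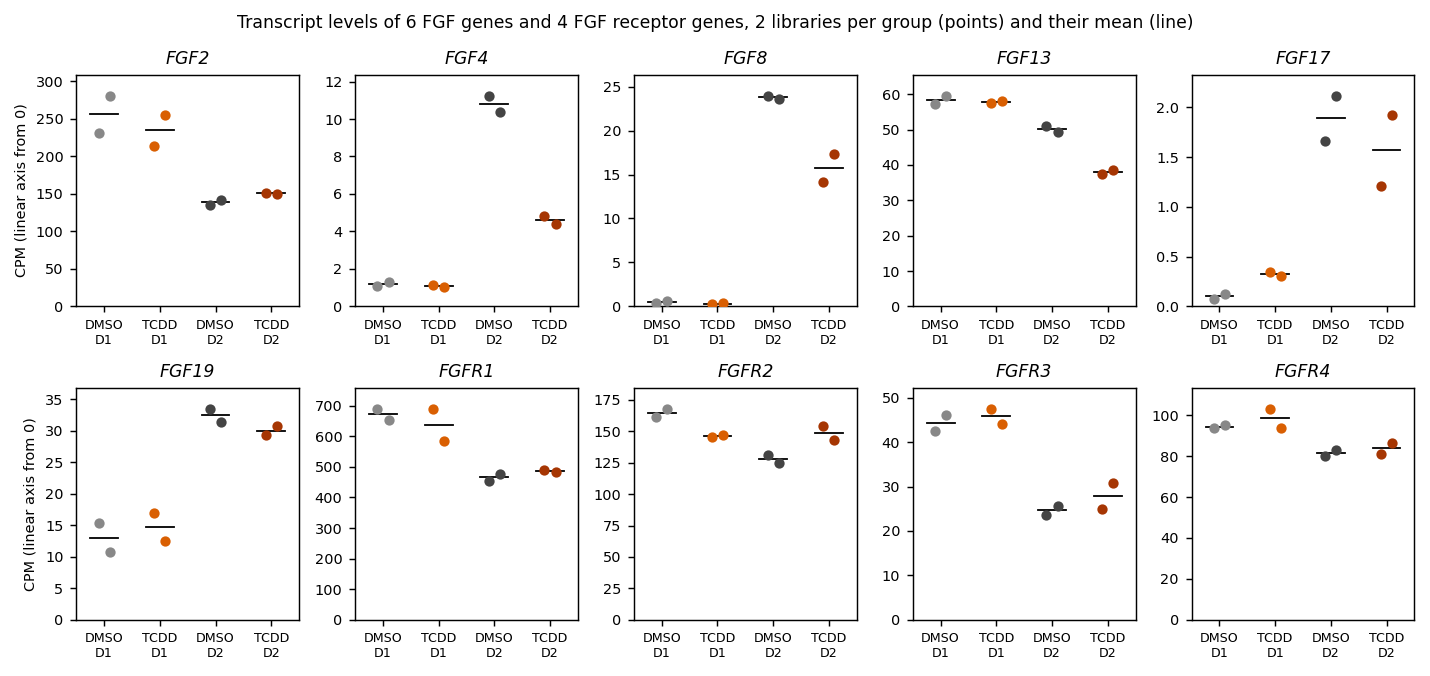
CPM of each of the 10 genes in every library (points) with the group mean (line), on linear axes that start at 0 and differ between panels. FGF4, FGF8, FGF17 and FGF19 are higher at D2 and FGF2, FGF13, FGFR1, FGFR3 and FGFR4 lower with either treatment, FGFR2 is lower at D2 with DMSO while its TCDD points overlap, and at D2 the TCDD points of FGF4, FGF8 and FGF13 lie under the DMSO points.

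The profile of each ligand that rose was set beside 13453 candidate genes, those averaging 1 CPM or more, by the root mean square difference of centred log2 CPM over the 8 libraries, where 0 would be the same profile. This is a description, since all points share the libraries, and no more than a likeness of levels. The 3 nearest genes to FGF4 were ARHGAP40 (0.27), SLC9A9 (0.34) and LEFTY2 (0.35). Those to FGF8 were WLS (0.27), which encodes the Wnt secretion factor, HOTAIRM1 (0.35) and DKK4 (0.40), a secreted Wnt antagonist. Those to FGF17 were WNT3A (0.29), a Wnt ligand, FBXL13 (0.42) and PDK1 (0.46), and those to FGF19 were EFEMP1 (0.11), TBC1D2 (0.13) and AMOTL1 (0.14).

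TCDD before differentiation left the family without a call. At D1, 0 of 10 members passed the edgeR test, where 1.14% of all genes tested were called, and 2 members had an unadjusted p under 0.05. The share of all genes at that unadjusted threshold was not taken, so such counts, here and below, are not read as a result. DESeq2 and limma-voom also called 0. The 2 members were FGFR2 and FGF17. FGFR2 gave 161 and 168 CPM with DMSO and 146 and 147 CPM with TCDD (-0.17 ± 0.05, adjusted p = 0.118). FGF17 gave 3 and 5 counts with DMSO and 15 and 11 counts with TCDD (1.66 ± 0.57, adjusted p = 0.245). These 2 were also the members whose DMSO and TCDD libraries did not overlap at D1, as those of 37.5% of all genes tested did not.

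Intervals show what these libraries could still hold at D1. For the 3 members later called lower at D2, the 95% interval of the log2 fold change at D1 was -0.58 to 0.31 for FGF4, -1.58 to 0.13 for FGF8 and -0.12 to 0.09 for FGF13. FGF8 had only 10 to 24 counts in a D1 library, so a change there of the size seen at D2 was not detectable at this depth. FGF2 was at 232 and 281 CPM with DMSO and at 214 and 256 CPM with TCDD, overlapping groups. FGFR1 gave 690.0 and 654 CPM with DMSO and 689 and 585 CPM with TCDD (-0.08 ± 0.06, adjusted p = 0.742), but without TCDD D1 replicate 1 it was called lower (-0.20, adjusted p = 0.0479). FGFR2 was called at D1 when genes with low counts were kept in the test (adjusted p = 0.024).

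At D2, after differentiation, 4 of the 10 members were called. FGF4, FGF8 and FGF13 were lower in cells that had been given TCDD, FGFR2 was higher, and 6 members did not pass the test. Of all genes tested 2.9% were called, 1.4% higher and 1.5% lower. The median log2 fold change was -0.04 over the 10 members and 0.00080 over all genes tested.

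FGF4 gave 11.2 and 10.4 CPM with DMSO (412 and 426 counts) and 4.82 and 4.38 CPM with TCDD (203 and 159 counts). Both TCDD libraries lie under both DMSO libraries. FGF4 was 57.3% lower, a log2 fold change of -1.23 ± 0.11 (95% interval -1.46 to -0.996, adjusted p = 3.59e-07). FGF8 gave 24.0 and 23.6 CPM with DMSO and 14.1 and 17.3 CPM with TCDD, 34.1% lower (-0.60 ± 0.09, 95% interval -0.80 to -0.41, adjusted p = 0.00041). The TCDD libraries of FGF8 spread more widely than the DMSO libraries and stay under them. Both levels remained far above those at D1.

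FGF13, the intracellular family member, gave 51.1 and 49.4 CPM with DMSO and 37.6 and 38.7 CPM with TCDD, 24.1% lower (-0.40 ± 0.05, adjusted p = 5.18e-05), with both TCDD libraries well under the DMSO pair. FGF4, FGF8 and FGF13 were called lower under each of 16 other processings, which include leaving out each library in turn. The largest adjusted p among these was 2.95e-05 for FGF4, 0.0236 for FGF8 and 0.003 for FGF13.

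FGFR2, the receptor gene that was higher, gave 132 and 124 CPM with DMSO and 154 and 143 CPM with TCDD, 1.16-fold (0.22 ± 0.05, adjusted p = 0.0137). The groups do not overlap, but the call was lost without DMSO D2 replicate 1 (adjusted p = 0.0526), DMSO D2 replicate 2 (0.288) or TCDD D2 replicate 1 (0.176). FGFR3 gave 23.6 and 25.7 CPM with DMSO and 25.02 and 30.7 CPM with TCDD, overlapping groups (0.17 ± 0.09, adjusted p = 0.379), and passed without TCDD D2 replicate 1 (adjusted p = 0.0427).

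The remaining members gave no call at D2. FGF2 stood at 135 and 142 CPM with DMSO and at 151 and 150.5 CPM with TCDD (0.12, 95% interval -0.15 to 0.39, adjusted p = 0.728). FGF17 had 61 and 87 counts with DMSO and 51 and 70 with TCDD (-0.29, interval -0.75 to 0.16, adjusted p = 0.599), and FGF19 gave 33.4 and 31.4 CPM and then 29.3 and 30.7 CPM (-0.11, interval -0.54 to 0.31, adjusted p = 0.851). The interval of FGF17 includes the change measured for FGF8. FGFR1 (0.06, interval -0.06 to 0.19) and FGFR4 (0.04, interval -0.07 to 0.15) were bounded more closely. The libraries of the 2 treatments did not overlap for 7 of 10 members, beside 47.7% of all genes tested.

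**Figure D3:**
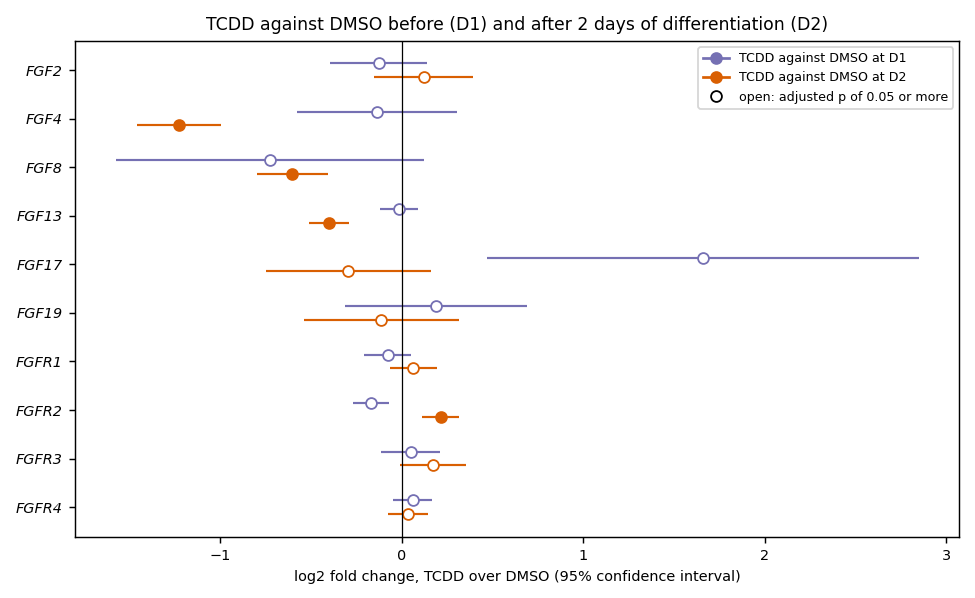
Log2 fold change of TCDD over DMSO with its 95% interval at D1 and at D2 for each member, with filled points where the adjusted p is under 0.05. At D1 every point is open, and at D2 FGF4 (-1.23), FGF8 (-0.60), FGF13 (-0.40) and FGFR2 (0.22) are filled.

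Per kilobase the ligand-family sum in TCDD D2 was 49.5 ± 2.05 CPM per kb beside 57.0 ± 0.27 in DMSO D2, and the receptor sum 77.9 ± 0.31 beside 72.6 ± 1.31, with no overlap in either. FGF8 made up 22.6% ± 2.33 of the ligand sum with TCDD and 29.7% ± 0.20 with DMSO, FGF4 2.88% ± 0.32 and 5.86% ± 0.31, and FGF2 45.1% ± 2.01 and 35.9% ± 1.35. In TCDD D2 the order was FGF2 at 22.3 CPM per kb, FGF19 at 12.3 ± 0.41, FGF8 at 11.2 ± 1.62, FGF13 at 1.84, FGF4 at 1.42 and FGF17 at 0.477. FGF19 and FGF8 did not differ beyond their spread there on merged exons. On coding transcript lengths the order was FGF2 at 28.6, FGF13 at 23.5, FGF8 at 19.7 ± 2.84 and FGF19 at 12.3, so FGF8 was the higher of the pair, and FGF8 made up 22.7% ± 2.28 of the ligand sum with TCDD and 28.4% ± 0.11 with DMSO.

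Markers of cell types also moved with TCDD at D2. Of 5 streak markers edgeR and DESeq2 called 4 lower, MIXL1 (-1.21 ± 0.06), GSC (-0.95 ± 0.15), T (-0.90 ± 0.06) and EOMES (-0.86 ± 0.05), and EVX1 gave -0.85 ± 0.22 (adjusted p = 0.149 with edgeR) and was called lower by limma-voom. The marker sum of 274 to 313 CPM with TCDD lay under the 580.3 to 617 CPM with DMSO, and the pluripotency sum of 5922 to 6058 CPM lay above the 5674 to 5720 CPM with DMSO. Of the 8 pluripotency genes edgeR called 1, SOX2, and 7 did not pass. Single genes went both ways: LIN28A stood at 1808 CPM with DMSO and 1947 CPM with TCDD, and NANOG at 25.5 and 22.9 CPM. In the fibroblast list COL1A1, a collagen gene that other cells also express, was called higher (0.54 ± 0.05, adjusted p = 3.59e-07) and THY1 was not (-0.19 ± 0.06, adjusted p = 0.139), and the list summed to 268 to 269 CPM with TCDD and 210 to 224 CPM with DMSO. COL1A1 had already been called higher by edgeR at D1 (0.20, adjusted p = 0.0356), a call lost in 5 of 16 other processings. KDR, of the mesoderm list, was called lower at D1 (-0.29, adjusted p = 0.0125), lost in 2 of 16. The part of the cell type markers in the lower FGF4, FGF8 and FGF13 and the higher FGFR2 was not tested. SOX2, which with POU5F1 acts at the FGF4 enhancer in stem cells, was higher with TCDD at D2 (0.59 ± 0.05, adjusted p = 1.32e-07), as was SOX21, a SOX repressor (2.48 ± 0.25, adjusted p = 2.65e-06), while POU5F1 (0.13, adjusted p = 0.162) and SOX3 (0.19, adjusted p = 0.577) did not pass. SOX21 alone of these 4 was called at D1 (1.76 ± 0.15, adjusted p = 1.03e-06).

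Genes next to FGF4 and FGF8 on their chromosomes were also looked at, too few to read a count of 0 against the 2.9% of all genes called at D2. Of 6 tested neighbours of FGF4 on chromosome 11, 0 were called by edgeR, DESeq2 or limma-voom at D2 and 1 had an unadjusted p under 0.05. CCND1, the cyclin D1 gene, gave 0.12 ± 0.08 (adjusted p = 0.571) and PPFIA1 -0.07 ± 0.05 (adjusted p = 0.571). FGF3, an FGF gene beside FGF4, had at most 2 counts in any library. FGF19, also on chromosome 11, is a member and was not counted among these neighbours. It gave -0.11 with TCDD at D2 (adjusted p = 0.851). Of 7 neighbours of FGF8 on chromosome 10, 0 were called at D2 by the same tools and 0 had an unadjusted p under 0.05, with NPM3, a histone chaperone gene, at -0.08 ± 0.05 (adjusted p = 0.498). From D1 to D2 with DMSO, 3 of the 6 FGF4 neighbours and 3 of the 7 FGF8 neighbours rose, among them CCND1 (0.70 ± 0.08) and NPM3 (1.02 ± 0.05), and 1 and 2 fell, beside 32.5% higher and 30.7% lower over all genes tested.

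With TCDD, 9 members changed from D1 to D2 in the direction they took with DMSO. These 9 were called, 4 higher and 5 lower, where 65.3% of all genes tested were called (33.1% higher, 32.2% lower), and their D1 and D2 libraries did not overlap, as for 81.4% of all genes tested. This comparison and the one with DMSO share no library, and their values stand side by side here. FGF8 rose 53.3-fold with TCDD (5.74 ± 0.19) and 49.0-fold with DMSO. FGF17 rose 4.68-fold (2.23 ± 0.31) and 18.2-fold, FGF4 4.19-fold (2.07 ± 0.16) and 8.93-fold, and FGF19 2.02-fold (1.01 ± 0.19) and 2.49-fold. FGF2 (-0.64 ± 0.11), FGF13 (-0.60 ± 0.05), FGFR1 (-0.39 ± 0.06), FGFR3 (-0.72 ± 0.08) and FGFR4 (-0.24 ± 0.05) fell with TCDD as they had with DMSO. FGFR2, at 146 and 147 CPM in TCDD D1 and 154 and 143 CPM in TCDD D2, showed overlapping groups (0.02, 95% interval -0.08 to 0.12, adjusted p = 0.701).

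**Figure D4:**
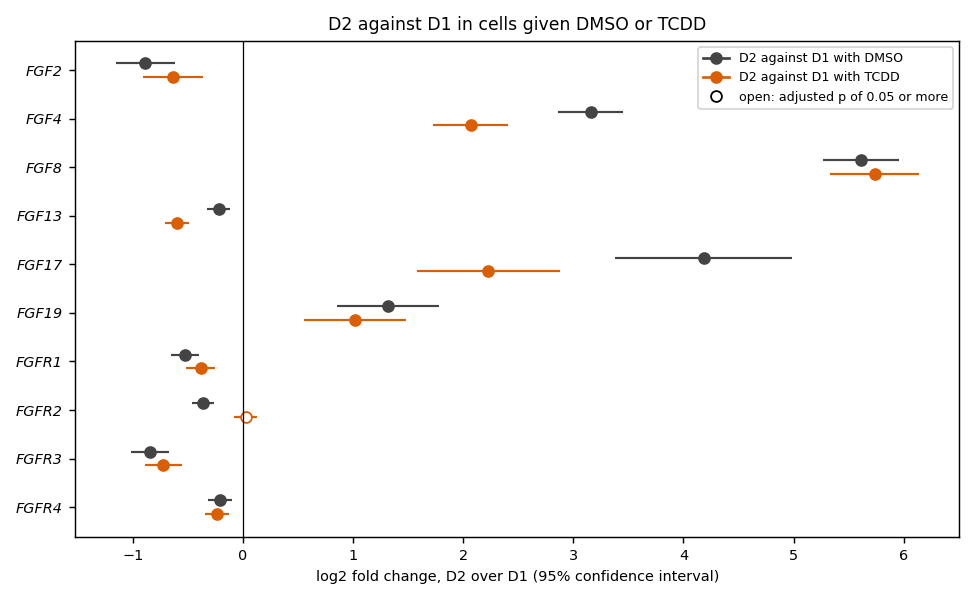
Log2 fold change from D1 to D2 with its 95% interval for each member, with DMSO and with TCDD, with filled points where the adjusted p is under 0.05. The intervals of a pair do not overlap for FGF4 (3.16 and 2.07), FGF17 (4.18 and 2.23), FGF13 (-0.22 and -0.60) and FGFR2 (-0.36 and 0.02), and FGFR2 with TCDD is the single open point. Intervals are too narrow for large rises from few D1 counts, such as those of FGF8 and of FGF17 with DMSO. The difference between the 2 FGF17 changes did not pass the direct edgeR test (adjusted p = 0.192).

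Whether TCDD acted differently at the 2 times was tested directly, as the effect at D2 minus the effect at D1, which is also the change over time with TCDD minus that with DMSO. Of the 10 members 3 were called, where 0.822% of all genes tested were called (0.527% higher, 0.295% lower). The FGF13 libraries overlapped at D1 (57.4 and 59.6 CPM with DMSO, 57.6 and 58.1 CPM with TCDD) and did not at D2, a difference of effects of -0.38 ± 0.07 (adjusted p = 0.0113). FGFR2 was under its control at D1 and over it at D2 (0.38 ± 0.07, adjusted p = 0.00728). FGF4, at 1.09 and 1.32 CPM with DMSO D1 and 1.17 and 1.02 CPM with TCDD D1, gave -1.09 ± 0.24 (adjusted p = 0.0316).

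The FGF4 call is the least firm of the 3. It was lost with DESeq2 (adjusted p = 0.0547), with limma-voom (0.0621) and without DMSO D1 replicate 1 (0.219), DMSO D1 replicate 2 (0.0605), DMSO D2 replicate 1 (0.11), TCDD D1 replicate 1 (0.139), TCDD D1 replicate 2 (0.0626) or TCDD D2 replicate 2 (0.103). The FGF13 call was lost without DMSO D1 replicate 1 (0.1), DMSO D2 replicate 1 (0.0927) or TCDD D2 replicate 1 (0.0547), and the FGFR2 call without DMSO D1 replicate 2 (0.0528) or DMSO D2 replicate 2 (0.0753). FGF8 gave 0.12 ± 0.41 (95% interval -0.73 to 0.97, adjusted p = 0.95), so with 10 to 24 counts in a D1 library its effects at the 2 times could not be told apart. FGF17 gave -1.96 ± 0.61 (adjusted p = 0.192) and passed when low genes were kept (0.0434).

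Other genes of the pathway were counted against the same background, 1.14% of all genes called with TCDD at D1, 2.9% at D2 and, over time with DMSO, 32.5% higher and 30.7% lower. Counts at an unadjusted p under 0.05 have no such background and show no trend by themselves. Among the other FGF genes, 9 of 16 were high enough to test, and at D1 FGF11, an FGF homologous factor, was called higher (0.28 ± 0.05, adjusted p = 0.00509), a call lost without DMSO D1 replicate 1 (0.193). At D2, 0 of the 9 were called by edgeR, DESeq2 or limma-voom, and 1 had an unadjusted p under 0.05. FGF18, the closest relative of FGF8 and FGF17, rose with differentiation as they did, from 0.736 to 9.86 CPM with DMSO (3.74 ± 0.17, adjusted p = 1.05e-13). Its D2 libraries had 339 and 430 counts with DMSO and 389 and 380 with TCDD, a difference of -0.01 ± 0.11 (adjusted p = 0.989). In all, 2 of the 9 rose from D1 to D2 with DMSO (FGF18 and FGF11, 0.46 ± 0.05) and 4 fell, among them FGF9 (-2.30 ± 0.58) and FGF23 (-0.68 ± 0.22).

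Proteins that help ligands meet receptors were covered by 17 tested genes, the syndecans, glypicans, FLRT proteins and others. With TCDD 0 were called at D1 and 0 at D2 by edgeR and DESeq2, with 7 and 4 at an unadjusted p under 0.05. From D1 to D2 with DMSO 5 rose and 9 fell, among them ANOS1 (1.86 ± 0.06), which encodes the matrix protein anosmin, FLRT2 (1.88 ± 0.09), the glypican gene GPC6 (1.37 ± 0.06) and the syndecan gene SDC2 (-0.88 ± 0.05). KLB, the Klotho co-receptor of FGF19, stayed low, with 17 to 32 counts in a library. Of 12 heparan sulfate enzymes, 1 was called at D2 with TCDD, NDST1, which sulfates the chains (0.26 ± 0.06, adjusted p = 0.0109), and it was lost without DMSO D2 replicate 1, DMSO D2 replicate 2 or TCDD D2 replicate 2 (adjusted p up to 0.186). Over time with DMSO 1 of the 12 rose and 7 fell, with SULF1, which removes sulfate from the chains, going from 70.2 to 7.91 CPM (-3.15 ± 0.12, adjusted p = 2.39e-09).

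Between receptor and nucleus, 19 signal transducers gave 0 calls with TCDD at either time by edgeR and DESeq2, with 2 and 1 at an unadjusted p under 0.05, and over time with DMSO 8 rose and 3 fell, such as the adaptor GRB2 (0.49 ± 0.04), HRAS (0.73 ± 0.08) and SHC1 (-0.38 ± 0.05). Of 11 ERK-induced and feedback genes, SPRED1, an inhibitor of RAS signalling, was called higher at D1 (0.34 ± 0.05, adjusted p = 0.00024). At D2 with TCDD, 0 of 11 were called by edgeR, DESeq2 or limma-voom and 4 had an unadjusted p under 0.05, and the median of the 11 was -0.26 beside 0.00080 over all genes tested. DUSP6, the ERK phosphatase gene, gave 39.2 and 31.6 CPM with DMSO and 23.9 and 22.1 CPM with TCDD at D2, without overlap (-0.61 ± 0.29, adjusted p = 0.475). ETV5, an ERK-induced transcription factor gene, gave -0.26 ± 0.07 (adjusted p = 0.0729) and SPRY4, a Sprouty gene, -0.53 ± 0.26 (adjusted p = 0.486). Over time with DMSO 3 of the 11 fell, 2 rose and 6 did not pass. ETV5 (-1.40 ± 0.07), DUSP6 (-1.62 ± 0.27) and SPRY4 (-0.92 ± 0.25) fell, and IL17RD, a feedback inhibitor gene, (0.89 ± 0.20) and SPRY2, a Sprouty gene, (0.40 ± 0.14, adjusted p = 0.047) rose.

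**Figure D5:**
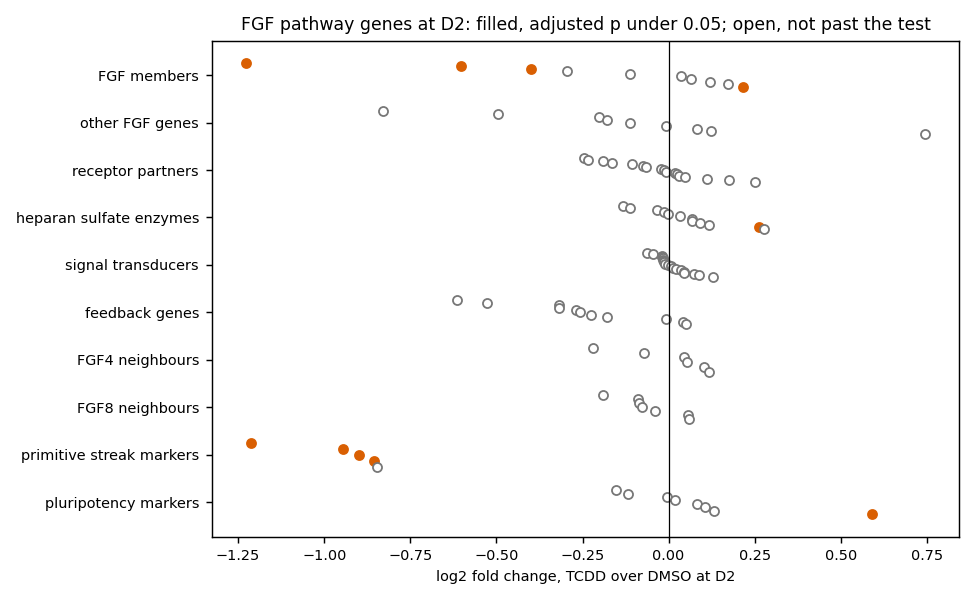
Log2 fold change of TCDD over DMSO at D2 for each tested gene of the family, of the pathway lists, of the neighbouring genes and of 2 marker lists, 1 point per gene, filled where the adjusted p is under 0.05. Filled points stand in the FGF members (4), the heparan sulfate enzymes (1), the streak markers (4) and the pluripotency markers (SOX2), and no feedback gene is filled. Of the 11 feedback genes 9 lie below 0, where the median over all genes tested was 0.00080. Whether they moved as a set was not tested.

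Some members share exon bases with genes on the opposite strand in the GENCODE 29 annotation, and whether the counting used strand is not stated in the sources used here, so reads of such partners cannot be told apart. NUDT6 shares 804 bases with FGF2 and had 123 to 178 counts in a library, FGF13-AS1 shares 167 bases with FGF13 and had 83 to 137 counts, and LETM2 shares 138 bases with FGFR1 and had 87 to 163 counts. Each is small beside the 4962 or more counts of FGF2, 1405 or more of FGF13 and 16649 or more of FGFR1. FGF13-AS1 gave -0.47 ± 0.16 with TCDD at D2 (adjusted p = 0.142).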

How the data were processed

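Raw counts per gene symbol were deposited by the authors for 8 libraries, without normalisation. Per the submitters' processing notes, the tools were cutadapt 1.9.1, STAR and featureCounts 1.5.1, and the build was hg19. STAR's version, the gene annotation, and how strand and multi-mapped reads were handled are not stated there or in the labels, so counts of overlapping genes are uncertain. Replicates of a group differed by more than sampling noise (chi-square per gene 3.21 to 6.59), and each library was a sample. Totals of 34873055 to 43770420 counts leave 1 count worth 0.0233 to 0.0275 CPM.

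Analyses used R 4.3.3, edgeR 4.0.16, limma 3.58.1 and DESeq2 1.42.0. After filterByExpr, 17268 of 27317 symbols were scaled by TMM and fitted with 1 mean per group over all 8 libraries (robust glmQLFit). Two-sided F tests of 5 comparisons were adjusted by Benjamini-Hochberg over all genes, and the procedure was checked on simulated data. The simulation gave every gene the same dispersion and changed only well-counted genes. It does not cover changes at counts as low as those of FGF8 and FGF17 at D1. Lengths came from GENCODE 29 (GRCh38), not the authors' annotation, and promoters from RefSeq. The members, gene lists and tests were chosen with earlier results of these data known. The rule named the 10 members, list genes called with TCDD, at most 4 further genes per list with the smallest p for D2 against D1 with DMSO, and the 3 genes most like each rising ligand. Other genes, such as KLB, FGF3, SPRY2, the antisense partners and single markers, were named after their values were seen. Alternatives were other normalisations, no filter on low counts, other tools, a replicate block, fits of the compared groups only, each library left out (its lone partner is assumed to vary like the other groups) and, chosen after seeing the data, no robust moderation and another gene length.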

Additional observations from a re-analysis of the deposited data

Results flagged for a closer look

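The effect of TCDD at D2 differed from that at D1 for 3 of the 10 FGF genes by the interaction test in edgeR. FGF4 gave a difference of effects of -1.09 on the log2 scale, FGF13 of -0.38 and FGFR2 of 0.38. For FGF4 and FGF13 the libraries of the treatments overlap at D1, and at D2 both TCDD libraries lie under both DMSO libraries. For FGFR2 the TCDD libraries lie under the DMSO libraries at D1 and above them at D2. Each of the 3 calls is lost when certain single libraries are left out, as given beside the values of this comparison.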

How the results depend on the processing

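Over 790 values of single FGF genes under other processings, 749 kept direction and side of the threshold, 16 lost a call, 5 gained one and 20 turned direction. All 10 calls from D1 to D2 with DMSO and all 9 with TCDD held throughout. Without a filter on low counts 480 genes were called at D1 (229 higher, 251 lower), 885 at D2 and 433 for the difference of effects, and 1 member, FGFR2, was called at D1. When each library was left out in turn, calls ran from 78 to 246 at D1, from 215 to 653 at D2 and from 49 to 269 for the difference of effects, and members called from 0 to 1 at D1 and from 1 to 3 for the difference of effects. The cause was not tested. Without composition scaling FGFR2 went from D1 to D2 with TCDD by -0.087, where the median of all genes was -0.11, and with libraries left out by -0.027 to 0.065. Other log2 values that turned direction as libraries were left out were, at D1, FGF2 (-0.26 to 0.018), FGF4 (-0.27 to 0.0087), FGF13 (-0.044 to 0.010), FGF19 (-0.059 to 0.46), FGFR1 (-0.20 to 0.035), FGFR3 (-0.0064 to 0.11) and FGFR4 (-0.0089 to 0.13), at D2, FGF17 (-0.65 to 0.020) and FGFR4 (-0.0081 to 0.082), and for the difference of effects FGF8 (-0.31 to 0.46), FGFR3 (-0.031 to 0.27) and FGFR4 (-0.090 to 0.045). None of these was called with all libraries. With the replicate number as a block, 205 genes were called at D1, 502 at D2, 10887 from D1 to D2 with DMSO and 11226 with TCDD, and 145 for the difference of effects, and the members called were 0, 4, 10, 9 and 3, as without the block. Over all genes tested, deviations of same-numbered libraries were at most weakly correlated (from -0.10 to 0.11 over 6 pairs of groups). The highest value was between DMSO D1 and TCDD D1. With 2 libraries in a group this cannot settle whether the numbers pair the samples.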
